A study of Mus musculus with 5 samples.

Results

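The collagen and laminin genes were the 55 genes whose symbols name a collagen chain (44 genes) or a laminin chain (11 genes) in the single-cell tables of a study of mice lacking the glucagon receptor gene Gcgr, out of 36529 genes measured. They were followed across 3 tumor libraries, 1 library of homozygous Gcgr knockout islets and 1 library of heterozygous Gcgr islets. The tumors carried the homozygous knockout, so both the tumors and the homozygous islets lacked the receptor, while the heterozygous islets, which the others are set against, carried 1 mutant allele. The labels give no strain, age or sex and name no treatment. Nothing says how many animals stood behind a library, so that p-values measure the spread between libraries only. The 3 tumor libraries are called A, B and C in order of their cell number. Cell types are the study's own annotation of the islet cells (alpha, beta, delta, PP, endothelial, stellate, in the heterozygous islets macrophage, and in the homozygous islets a type named Unknown2). The tumor cells carried library and cluster labels and no islet cell type, so whole tumor libraries are used.

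Collagens are triple helices of alpha chains. Fibrillar collagens form the fibers of connective tissue, collagen IV forms the sheet of basement membranes, and collagen VI forms beaded filaments beside cells. Laminins are heterotrimers of an alpha, a beta and a gamma chain that organize basement membranes and bind integrins on the cell surface. In the pancreas, islet capillaries lie on a vascular basement membrane, and stellate cells are known as the main producers of fibrillar collagen.

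Stretches of promoter sequence are shown for Col27a1, the chain that was highest in alpha and tumor cells, and for Col3a1, a chain of stellate cells. Each is the 250 bases before the RefSeq start (build GRCm38.p6), 5′ to 3′ on the gene's strand. None of these bases lies in an exon of the GENCODE annotation, and those of Col27a1 lie inside an intron of a longer Col27a1 transcript there. Capitals mark the motif GGGCGG in the first stretch and the motif TATAAA in the second; CCAAT was also searched, all on both strands.
Col27a1, plus strand, chr4:63215162-63215411: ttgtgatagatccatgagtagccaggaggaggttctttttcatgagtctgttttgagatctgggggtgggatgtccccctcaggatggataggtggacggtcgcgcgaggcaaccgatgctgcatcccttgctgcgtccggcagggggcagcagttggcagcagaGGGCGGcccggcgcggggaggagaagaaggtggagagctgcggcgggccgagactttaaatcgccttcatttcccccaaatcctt
Col3a1, plus strand, chr1:45311288-45311537: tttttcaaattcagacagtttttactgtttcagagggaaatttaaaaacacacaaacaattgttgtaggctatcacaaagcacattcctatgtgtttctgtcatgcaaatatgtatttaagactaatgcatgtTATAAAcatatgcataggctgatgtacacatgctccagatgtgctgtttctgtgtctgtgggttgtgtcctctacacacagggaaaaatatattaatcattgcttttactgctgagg
The Col27a1 stretch held 15 CG dinucleotides and that of Col3a1 held 0. Col27a1 had 1 GGGCGG match, 85 bases before the start, a motif present in 32.7% of all 32851 promoter stretches of this length. Col3a1 had 1 TATAAA match, 117 bases before the start, a motif present in 12.4% of them. Neither stretch held CCAAT, which 33.8% of all stretches held.

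After removal of doublet calls the tumor libraries held 495, 846 and 1084 cells, the homozygous islets 2843 cells and the heterozygous islets 1326 cells, with 10086827 to 34091060 unique molecular identifiers (UMIs, each a counted transcript molecule) per library. No Gcgr UMI was found in the homozygous islets, and tumors A, B and C had 0, 1 and 3, against 124 in the beta and 8 in the alpha cells of the heterozygous islets alone. Levels are given as UMIs per 1000000 UMIs of the cells summed (CPM), with 95% Poisson intervals that cover counting error only. The kit counts the 3′ end of each transcript, so that levels of different genes are not scaled by length. Fewer transcripts per cell and fewer cells holding a transcript cannot be told apart in a summed level. Stellate cells had a UMI of all 8 fixed stellate or pericyte markers in the homozygous islets and of 7 of 8 in the heterozygous islets (Cspg4 at 0). Endothelial cells had all 8 endothelial markers in both. Detection alone does not separate types, since homozygous alpha cells also had all 8 of each list. The stellate markers summed to 18061.5 and 19465 CPM in stellate cells of homozygous and heterozygous islets, against 16.7 and 21.5 CPM in alpha cells. The endothelial markers summed to 15422 and 18316 CPM in endothelial cells, against 30.9 and 63.1 CPM in alpha cells. Unknown2 held 86 cells (3.02% of its library), in which the macrophage markers summed to 55765 CPM and the members to 135 CPM, with Col14a1 highest at 21.9 CPM (6 UMIs). Free hormone RNA was present in every type: Gcg, the glucagon gene, reached 14343 CPM in endothelial cells of homozygous islets.

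Collagen and laminin transcripts were concentrated in stellate and endothelial cells. Members summed to 11820 CPM in stellate cells of homozygous islets and 15487.5 CPM in those of heterozygous islets, and to 3146 and 3838 CPM in the endothelial cells of the same libraries. Alpha cells summed to 72.0 CPM in homozygous and 93.3 CPM in heterozygous islets, and beta cells to 53.8 and 73.2 CPM. The tumor libraries summed to 117 CPM (A), 116 CPM (B) and 163 CPM (C), above both alpha cell values. Without Col27a1, the most abundant member there, the sums were 66.3, 45.4 and 106 CPM in tumors A, B and C, against 53.7 CPM in homozygous and 69.3 CPM in heterozygous alpha cells, so that the groups overlapped. Stellate cells made up 2.60% of cells in the homozygous and 2.49% in the heterozygous islets but held 36.1% and 22.1% of all member UMIs. Endothelial cells held 28.6% of them in the homozygous and 52.0% in the heterozygous islets. The most numerous types also held many at their low levels. Homozygous alpha cells, 53.6% of cells, held 1596 member UMIs, against 1781 in endothelial cells. Heterozygous beta cells, 51.7% of cells, held 1265, against 1394 in stellate cells. Of the 55 genes, 35 reached 5 CPM in the mean of the islet libraries for at least 1 cell type. Of these, 26 were highest in stellate cells and 8 in endothelial cells. In stellate cells 1 UMI equalled 5.26 CPM in homozygous and 11.1 CPM in heterozygous islets, so the bar can be passed on very few UMIs. Col9a2 passed it there on 1 UMI, against 67 and 12 UMIs in alpha cells, and Col7a1 on 3 UMIs. The share over all genes was not computed, so these counts show nothing particular to the members. Since the study's clusters were made from the same genes, these levels are a description and carry no test.

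**Figure D1:**
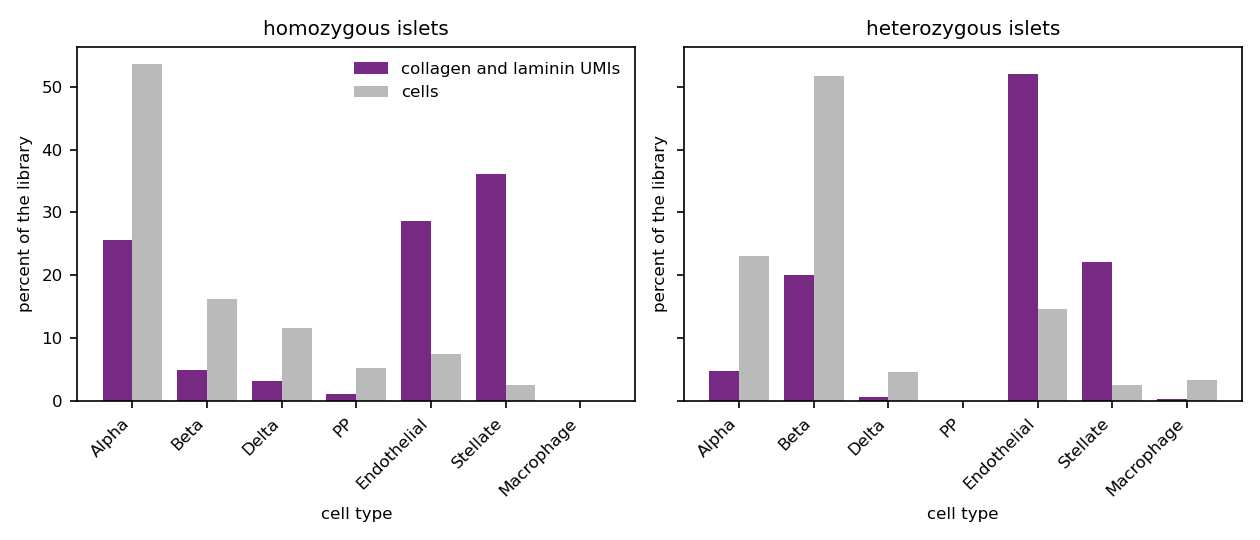
Percent of a library's collagen and laminin UMIs (purple) and of its cells (grey) in each annotated cell type, homozygous islets left and heterozygous islets right. Stellate cells were 2.60% and 2.49% of cells and held 36.1% and 22.1% of the UMIs.

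Among the fibrillar chains, Col1a2, Col3a1 and Col1a1, which form collagens I and III, were the most abundant members in stellate cells. Col1a2 reached 2284 CPM in stellate cells of homozygous and 3078 CPM in those of heterozygous islets. Col3a1 reached 1905 and 3266 CPM, and Col1a1 1237 and 1678 CPM, in the same order. Col1a1 made up 35.1% of the Col1a1 and Col1a2 UMIs in homozygous and 35.3% in heterozygous stellate cells, with overlapping intervals (31.5% to 38.9% and 30.8% to 40.0%). The chains of collagen V, which is known to initiate fibrils, followed at lower levels in stellate cells: Col5a2 at 195 CPM in homozygous and 278 CPM in heterozygous islets, Col5a1 at 105 and 167 CPM, and Col5a3 at 94.7 and 233 CPM. In endothelial cells Col5a3 was at 12.4 CPM in homozygous and 12.9 CPM in heterozygous islets. Col27a1, a fibrillar chain best known from cartilage, had 36.8 CPM in homozygous and 44.4 CPM in heterozygous stellate cells, from 7 and 4 UMIs. Its alpha cell level was 18.3 and 23.9 CPM in the same libraries, from 405 and 77 UMIs.

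The paired collagen IV chains Col4a1 and Col4a2 were shared by endothelial and stellate cells. Col4a1 had 866 CPM in endothelial cells of homozygous and 1096 CPM in those of heterozygous islets, and 858 and 933 CPM in stellate cells. Col4a2 had 685 and 808 CPM in endothelial cells and 663 and 689 CPM in stellate cells. Both types thus carried this basement membrane collagen. The 5′ ends of Col4a1 and Col4a2 overlap on opposite strands, away from the 3′ ends that the kit counts. Col3a1 shares exon bases with Gm47302 and Lama2 with the opposite-strand Gm48084. Counts are uncertain where counting could not separate such overlaps. The minor chains Col4a3 and Col4a4, known from the kidney and lung basement membranes, had 38.9 and 8.83 CPM in endothelial cells of homozygous and 43.3 and 23.4 CPM in those of heterozygous islets. In stellate cells, Col4a3 had 3 UMIs in homozygous and 7 UMIs in heterozygous islets, too few to rank the types. No Col4a6 UMI was found in any library.

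Collagen VI followed the fibrillar pattern. Col6a1 reached 926 CPM in stellate cells of homozygous and 1155 CPM in those of heterozygous islets, Col6a2 753 and 822 CPM, and Col6a3, the long chain of the same filaments, 284 and 467 CPM. Endothelial cells had 10.6 and 18.7 CPM of Col6a1. The alternative chains Col6a5 and Col6a6 had 31.6 and 26.3 CPM in homozygous stellate cells, where the intervals rest on 6 and 5 UMIs.

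Several chains split between stellate and endothelial cells. Col14a1, a collagen that associates with fibrils, had 753 CPM in stellate cells of homozygous and 456 CPM in those of heterozygous islets, and 65.0 CPM (11 UMIs) in macrophages of the heterozygous islets. Col8a1, a short chain collagen known from vessel walls, had 137 and 211 CPM in stellate cells. Col15a1, a basement membrane zone collagen, was present in both types, at 274 and 578 CPM in stellate cells and 284 and 287 CPM in endothelial cells. Col13a1, a transmembrane collagen, was at 343 CPM in endothelial cells of homozygous and 546 CPM in those of heterozygous islets, and no UMI of it was found in stellate cells of either library, which allows up to 15.8 CPM in homozygous and 33.3 CPM in heterozygous stellate cells.

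Laminin alpha chains were divided between stellate and endothelial cells. Lama2, the alpha chain of muscle and nerve basement membranes, had 237 CPM in stellate cells of homozygous and 344 CPM in those of heterozygous islets, against 3.53 CPM and no UMI (a limit of 3.51 CPM) in the endothelial cells of the same libraries. Lama3 had 108 and 103 CPM and Lama5 63.6 and 74.9 CPM in endothelial cells, with no UMI of either in stellate cells, under the same limits as for Col13a1. Lama4, an alpha chain of vessel basement membranes, had 72.4 and 123 CPM in endothelial cells and 99.99 and 88.9 CPM in stellate cells. The beta chains Lamb1 and Lamb2 were at 129 and 163 CPM in endothelial cells of homozygous and 117 and 199 CPM in those of heterozygous islets. In stellate cells they were at 216 and 147 CPM in homozygous and 111 and 189 CPM in heterozygous islets. The common gamma chain Lamc1 was at 173 CPM in endothelial cells of homozygous and 201 CPM in those of heterozygous islets, and at 263 and 244 CPM in stellate cells. Lamc3 was a stellate chain, at 47.4 and 122 CPM.

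**Figure D2:**
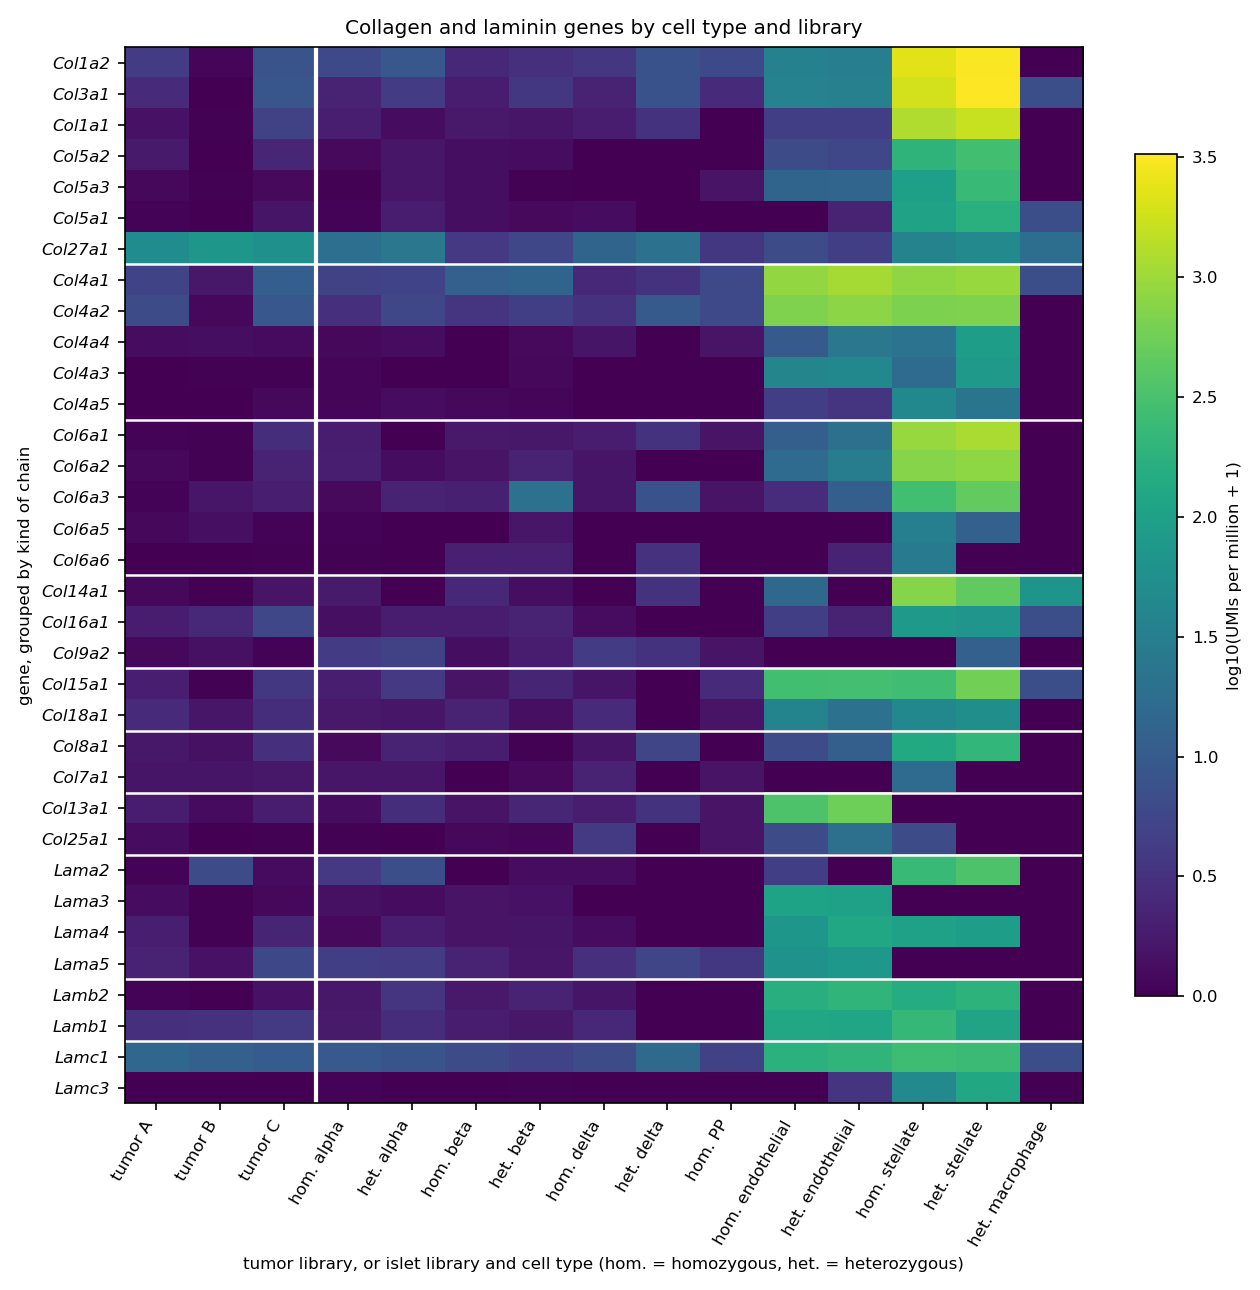
Level of 34 genes that reached 5 CPM in an islet cell type, as log10(CPM + 1), in the tumor libraries (left of the white line) and in each islet cell type with homozygous left of heterozygous islets. White horizontal lines separate fibrillar chains, collagen IV, collagen VI and the further kinds of chain. Most genes are bright in stellate or endothelial columns, while Col27a1 is also bright in tumor columns.

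Tumor cells were compared with islet alpha cells, the cell type from which the study's title derives the tumors. Tumor cells expressed the alpha markers, with 364264, 284170 and 312470 CPM of Gcg in A, B and C, against 326369 CPM in homozygous and 339537 CPM in heterozygous alpha cells. Col27a1 rose in tumor cells. Its level was 50.4 CPM in tumor A (508 UMIs), 70.9 CPM in tumor B (1602 UMIs) and 56.5 CPM in tumor C (1230 UMIs), against 18.3 CPM in homozygous (405 UMIs) and 23.9 CPM in heterozygous alpha cells (77 UMIs). Every tumor library lay above both alpha cell values. On the mean CPM over cells, which the test used, tumors averaged 59.9 ± 9.24 CPM (SD, n = 3) and alpha cells 21.1 ± 1.71 CPM (SD, n = 2). The log2 difference was 1.45 (SE 0.24) with an adjusted p of 0.0315 in limma's moderated test with Benjamini-Hochberg adjustment over 10173 genes, where the median difference of all genes was 0.24. In that test 212 genes were called higher, a background of 2.08%, and 14 lower, a background of 0.138%. Of the 55 members 6 passed the filter of 5 CPM in 2 libraries, and 1 of them, Col27a1, was called higher and 0 lower.

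The call for Col27a1 sits near the threshold. Its direction held under every alternative run, with log2 differences between 1.197 and 1.54, but its adjusted p was above 0.05 when any single library was left out (0.0672 without tumor A, 0.0736 without tumor B, 0.0719 without tumor C, 0.0958 without the homozygous and 0.121 without the heterozygous alpha cells), under TMM scaling (0.0802) and in edgeR's quasi-likelihood test (0.0983). It was 0.00103 in DESeq2.

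Per cell the same gene was more widely detected in tumors. After thinning every cell to 5000 UMIs, a Col27a1 UMI was found in 21.7% of cells in tumor A, 28.6% in B and 21.5% in C (mean 24.0 ± 4.04, SD, n = 3), against 9.04% of homozygous and 10.0% of heterozygous alpha cells. In beta cells, taken as a background, the share was 0.943% in homozygous and 2.35% in heterozygous islets. Without thinning the shares were 55.6%, 72.8% and 58.1% in the tumors, 21.5% and 19.9% in alpha cells and 2.82% and 9.91% in beta cells. The median depths were 19867, 26091.5 and 19379 UMIs in the tumors, 14086 and 10002.5 UMIs in alpha cells and 10854 and 26444 UMIs in beta cells. The 10 tumor cells with the most Col27a1 UMIs held 9.25%, 6.68% and 5.12% of a library's UMIs of the gene; no small set of cells held most of it. Delta cells also carried the gene, at 12.7 CPM in homozygous and 20.1 CPM in heterozygous islets.

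Lamc1, the gamma chain found in most laminins, was at 14.6, 10.8 and 9.51 CPM in tumors A, B and C, against 8.44 CPM in homozygous and 7.15 CPM in heterozygous alpha cells. The log2 difference of 0.53 (SE 0.27) was not called (limma, adjusted p = 0.312). Every tumor library lay above both alpha cell values. The gene lies at chr1:153218922-153332786 on the minus strand (GRCm38). Its delta cell level was 5.50 CPM in homozygous and 15.6 CPM in heterozygous islets, the second from 7 UMIs. Among laminin chains that were near 0, Lamb3 had 2 UMIs in tumor B and none in the other tumors or in either islet library. Lama3 was at 0.297, 0.0443 and 0.184 CPM in tumors A, B and C, against 0.451 and 0.311 CPM in homozygous and heterozygous alpha cells.

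Lama2 was uneven among the tumors. Tumor B had 5.62 CPM (127 UMIs in 103 cells), while tumors A and C had 0.0991 CPM (1 UMI) and 0.276 CPM (6 UMIs). Homozygous alpha cells had 2.84 CPM (63 UMIs) and heterozygous alpha cells 5.91 CPM (19 UMIs), against no UMI (a limit of 0.534 CPM) and 0.290 CPM in beta cells. Tumor B thus lay between both alpha cell values and tumors A and C below them, and the log2 difference of -1.43 (SE 0.87) was not called (limma, adjusted p = 0.386). In alpha cells there were 36.8% Lama2 among Lama2 and Col1a2 UMIs in homozygous and 42.2% in heterozygous islets, against 9.39% and 10.1% in stellate cells, and in tumor B it was 97.7%, from 127 and 3 UMIs.

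Other chains were low in alpha and tumor cells. Col1a2 was at 3.27, 0.133 and 7.26 CPM in tumors A, B and C, against 4.87 and 8.09 CPM in homozygous and heterozygous alpha cells (log2 difference -1.03, SE 0.79, limma adjusted p = 0.501). Col4a2 was at 5.65, 0.177 and 7.95 CPM, against 1.94 and 4.67 CPM (log2 difference 0.12, SE 0.87, limma adjusted p = 0.953). Tumor B had the lowest value of both. Col4a1 was at 4.26, 0.708 and 10.2 CPM in the tumors, against 3.97 and 4.04 CPM in alpha cells, and Col3a1 at 1.59 CPM, no UMI (a limit of 0.133 CPM) and 7.67 CPM, against 1.22 and 3.11 CPM. Lama5 was at 1.19, 0.487 and 4.78 CPM in the tumors, against 3.43 and 3.11 CPM in alpha cells, and Col11a2, a minor fibrillar chain, at 2.58, 3.19 and 3.996 CPM, against 1.31 and 1.24 CPM. Col9a2, a collagen IX chain that decorates fibrils, was below the filter: it had 2, 10 and 2 UMIs in tumors A, B and C (0.198, 0.443 and 0.0919 CPM), against 67 UMIs in homozygous and 12 UMIs in heterozygous alpha cells (3.02 and 3.73 CPM). With the filter at 1 CPM it was tested and called lower (log2 difference -2.10, SE 0.35, limma adjusted p = 0.0344). It passed that filter only through the alpha cells, with a mean CPM over cells of 3.42 and 5.14. The tumors had 0.170, 0.412 and 0.0835. The lower direction therefore follows in part from how the gene entered, and no conclusion is drawn from this call.

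**Figure D3:**
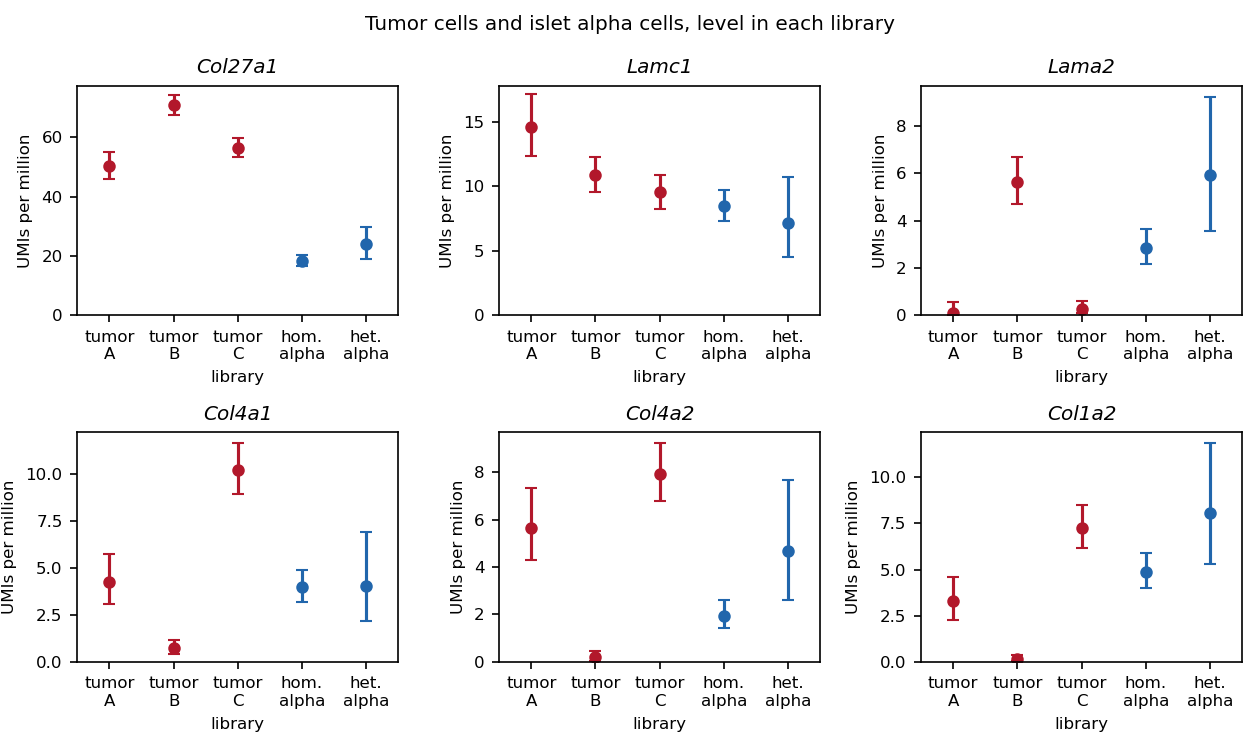
CPM of 6 genes in each tumor library (red) and in the alpha cells of homozygous and heterozygous islets (blue), with 95% Poisson intervals. Col27a1 lies between 50.4 and 70.9 CPM in tumors, above 18.3 and 23.9 CPM in alpha cells, while Lama2 is at 5.62 CPM in tumor B and 0.0991 and 0.276 CPM in tumors A and C.

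Markers of stromal cells were lowest in tumor B and highest in tumor C among the tumors, the same order as Col1a2, Col3a1, Col4a1 and Col4a2. The 8 stellate or pericyte markers, of which none is a member, summed to 7.63 CPM in tumor A, 3.01 CPM in B and 17.0 CPM in C, against 16.7 CPM in homozygous and 21.5 CPM in heterozygous alpha cells. Pdgfra and Cspg4 were at 0 in tumor A, and Pdgfrb, Pdgfra, Cspg4 and Dcn in tumor B. The 8 endothelial markers summed to 39.3, 6.02 and 53.6 CPM in the tumors and to 30.9 and 63.1 CPM in alpha cells. At least 2 of these 16 markers were detected in 20%, 1.77% and 30.8% of the cells of tumors A, B and C, against 12.3% of homozygous and 20.3% of heterozygous alpha cells. Col27a1 was highest in tumor B. Leaving out all cells with 2 or more markers, which does not remove free RNA, gave it a log2 difference of 1.47 (SE 0.25, limma adjusted p = 0.0341). The part of stromal RNA in those 4 genes and in Col27a1 was not tested. Among the members with 50 CPM or more in stellate or endothelial cells, the alpha cell level was a median 0.213% of that source level in homozygous islets (23 genes) and 0.350% in heterozygous islets (27 genes), with Lama5 the highest at 5.39% and 4.15%. Members entered by their high source level, so low percents follow in part from that choice and carry no test. Col27a1, at 36.8 and 44.4 CPM in stellate cells of homozygous and heterozygous islets, did not enter.

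Within homozygous islets the study divided alpha cells into clusters 2.1 (947 cells) and 2.2 (563 cells). Col27a1 was at 22.4 CPM in 2.1 and 10.6 CPM in 2.2. Col9a2 was at 4.15 and 1.02 CPM (59 and 8 UMIs) and Col26a1 at 2.18 and 0.511 CPM (31 and 4 UMIs). Lamc1 (9.08 and 7.41 CPM) and Col1a2 (4.58 and 5.50 CPM) were closer together. Col9a2 and Col26a1 were chosen after their values were seen. The clusters were made from the same genes, so these levels carry no test. In tumor C, Col27a1 was at 55.2 CPM in its cluster 2 and 58.6 CPM in its cluster 4.

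Because the title speaks of a subset of alpha cells, cells were also split by Slc38a5, an amino acid transporter gene, into those with and without a Slc38a5 UMI after thinning, within tumors A and C and both islet libraries. Tumor B had fewer than 20 negative cells and was left out. No member was called among the 8 tested. Col27a1 averaged 54.5 and 56.8 CPM in positive cells of tumors A and C and 20.1 and 19.8 CPM in those of homozygous and heterozygous islets, against 33.3, 53.0, 19.2 and 23.5 CPM in the negative cells of the same libraries (log2 difference 0.15, SE 0.17, limma adjusted p = 0.789). Over all 10792 genes limma called 0, a background of 0%, with 1065 at an unadjusted p under 0.05, while edgeR called 52 and DESeq2 13, no member among them. Positive cells were deeper, with median UMIs of 21004 against 16118.5 in tumor A and 12175 against 10530.5 in heterozygous islets, and the part of depth was not tested.

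Between the islet libraries, each genotype had 1 library, so the following ratios have no replicate check. In stellate cells 28 members reached 20 CPM in at least 1 genotype, with a median homozygous over heterozygous ratio of 0.772, against 0.9496 over all 8091 genes at that level. Col3a1 had a ratio of 0.583 (interval 0.499 to 0.683), Col1a2 of 0.742 (0.637 to 0.866), Col1a1 of 0.737 (0.598 to 0.911) and Col15a1 of 0.474 (0.316 to 0.710). Col14a1 went the other way, at 1.65 (1.16 to 2.40). In endothelial cells 16 members had a median ratio of 0.855, against 0.981 over 7524 genes, with Col13a1 at 0.628 (0.529 to 0.744), Lama4 at 0.589 (0.4002 to 0.853) and Col4a1 at 0.790 (0.707 to 0.882). In alpha cells, where the median of 4726 genes was 0.8002, Col27a1 was at 0.763 (0.597 to 0.987). The medians here were taken after adding 1 CPM to both levels, while the ratios of single genes were not. With that addition Col27a1 was at 0.773. Among members at 20 CPM or more none had an interval beyond 1.5-fold in these types, so none met the rule for naming; those given here were chosen after their values were seen. Of the 28 stellate members 20 were lower and 8 higher in homozygous islets, against 4257 lower and 3834 higher of all 8091 genes. Genes entered by the genotype where they were higher, some on few UMIs. Col6a6 entered on 5 UMIs in homozygous and 0 in heterozygous stellate cells, and Col4a3 on 3 and 7 UMIs. The split and the medians depend in part on this entry and carry no test. Stellate cells numbered 74 in homozygous and 33 in heterozygous islets.

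**Figure D4:**
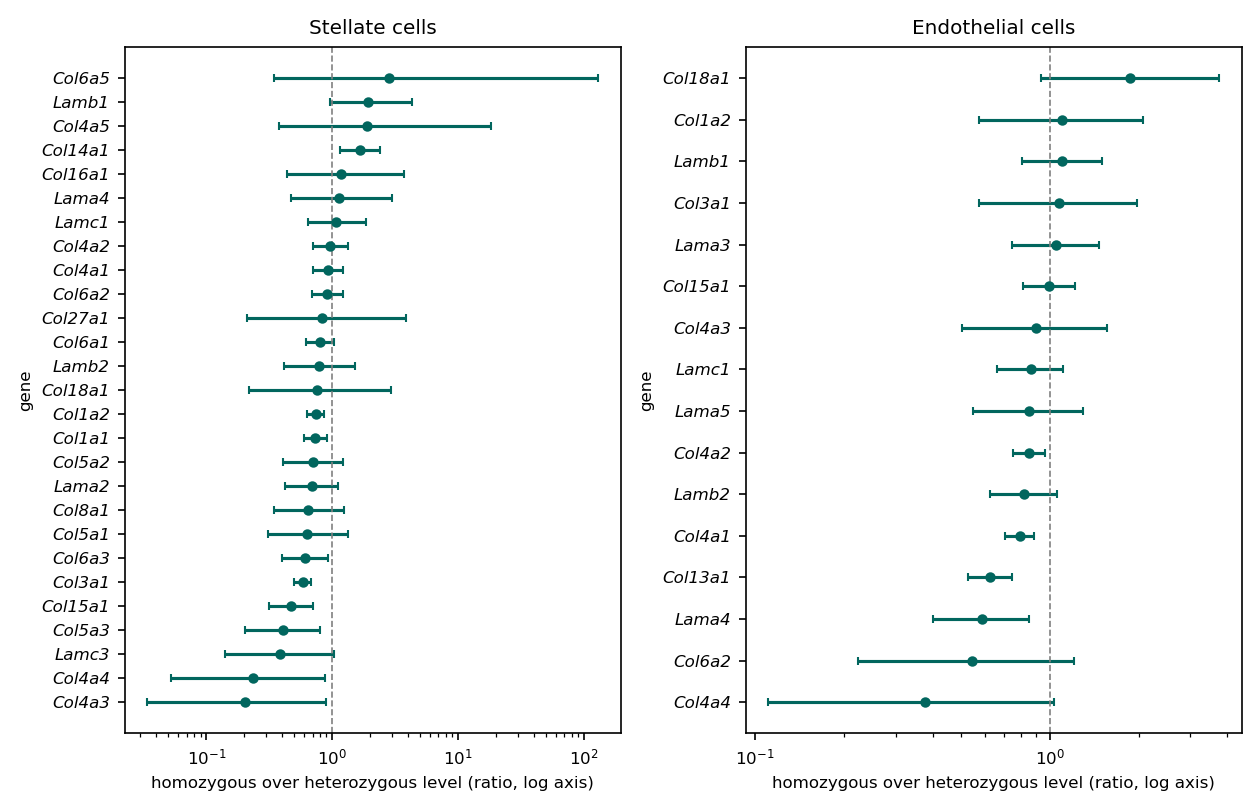
Ratio of the level in homozygous islets over that in heterozygous islets (log axis) for members at 20 CPM or more in 1 genotype and with a UMI in both, with 95% binomial intervals. In stellate cells Col3a1 lies at 0.583 and Col14a1 at 1.65, and in endothelial cells Col13a1 lies at 0.628.

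Beta cells stood out among the endocrine types by Col4a1 in both islet libraries and by Col6a3 in the heterozygous islets. Col6a3 was at 1.07 CPM in beta cells of homozygous islets (6 UMIs) and 19.97 CPM in those of heterozygous islets (345 UMIs), a ratio of 0.0535 (0.0195 to 0.118) chosen after its values were seen. In the heterozygous islets both beta clusters carried it, at 19.7 CPM in cluster 1.1 and 20.5 CPM in cluster 1.3, both above 1.13 CPM in homozygous cluster 2.4. A further homozygous beta cluster, 2.7, held 27 cells. It is part of the 1.07 CPM above and is not given by itself. After thinning, 0.472% of homozygous and 8.38% of heterozygous beta cells held a Col6a3 UMI, against a background in alpha cells of 0.140% and 0.772%. Without thinning the beta cell shares were 1.30% and 35.6%, at the median depths given above. The same gene in stellate cells had a ratio of 0.609. Col6a3 was also at 10.5 CPM (9 UMIs) in endothelial and 6.69 CPM (3 UMIs) in delta cells of heterozygous islets. Its filament partners Col6a1 and Col6a2 were at 0.712 and 0.534 CPM in beta cells of homozygous and 0.695 and 1.16 CPM in those of heterozygous islets. Col6a3 made up 90.8% (87.4% to 93.5%) of Col6a3 and Col1a2 UMIs in heterozygous beta cells, against 13.2% in heterozygous stellate cells. In homozygous beta cells it was 42.9% (17.7% to 71.1%), from 6 and 8 UMIs. Genotype and library cannot be told apart here.

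Col4a1 in beta cells was at 10.9 CPM in homozygous islets and at 12.7 CPM in heterozygous islets, where Col6a3 was higher. Its partner Col4a2 was at 2.49 and 3.53 CPM. Col4a1 made up 81.3% (70.7% to 89.4%) of the UMIs of both genes in homozygous and 78.3% (73.0% to 82.97%) in heterozygous beta cells, against 55.8% and 57.6% in endothelial cells and 56.4% and 57.5% in stellate cells of the same libraries. The beta cell intervals lie above those of endothelial and stellate cells in both libraries. In tumors the share was 43.0% in A, 80.0% in B (from 20 UMIs) and 56.2% in C, and in alpha cells 67.2% in homozygous and 46.4% in heterozygous islets.

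**Figure D5:**
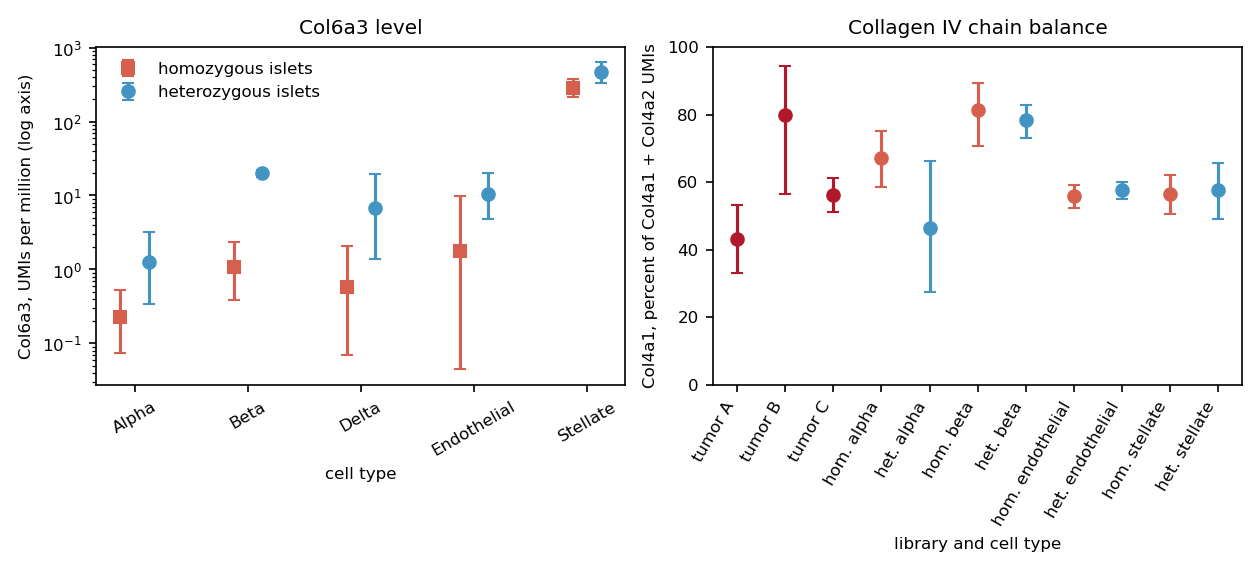
Left, Col6a3 in CPM (log axis) by cell type in homozygous (squares) and heterozygous islets (circles), with 95% Poisson intervals; beta cells lie at 1.07 and 19.97 CPM. Right, Col4a1 as a percent of Col4a1 and Col4a2 UMIs with 95% binomial intervals; beta cells lie at 81.3% and 78.3% and endothelial cells at 55.8% and 57.6%.

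Genes that fold, bind, sense or cut these chains were read from fixed lists. In tumor against alpha cells 0 of 6 tested folding and crosslinking genes, 0 of 3 matrix partners, 0 of 8 receptors and 0 of 3 proteases and inhibitors were called by limma in either direction, with median log2 differences of 0.41, -0.72, 0.13 and -0.63. Among the values nearest the threshold, P4hb, a subunit of prolyl hydroxylase, was at 377, 314 and 229 CPM in tumors A, B and C, against 159 and 151 CPM in homozygous and heterozygous alpha cells (limma adjusted p = 0.131). Bmp1, which trims fibrillar procollagens, was at 20.5, 20.8 and 17.6 CPM, against 11.9 and 8.396 CPM (limma adjusted p = 0.110). Itga6, a laminin receptor subunit, was at 8.53, 5.05 and 7.95 CPM, against 2.03 and 1.87 CPM (limma adjusted p = 0.0995). Itgb4, 1 of its partners, was at 0.198, 0.0885 and 0.0459 CPM, against 0.180 and 0.311 CPM. Itgb1, on the same receptor list, was abundant: its mean CPM over cells was 78.0, 82.9 and 66.1, against 67.3 and 61.0. These were chosen after their values were seen. By cell type, 13 of 15 folding genes and 12 of 15 matrix partners at 5 CPM were highest in stellate cells, among them Pcolce at 2310 and 3011 CPM in homozygous and heterozygous islets, while 8 of 15 receptors were highest in endothelial cells. Very few UMIs pass 5 CPM in stellate cells, and the share over all genes was not computed. The counts therefore show nothing particular to these lists.

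The other 20 members stayed below 5 CPM in the mean of every islet cell type and in every tumor library. Col2a1, the cartilage collagen, had no UMI in any library, as had Col4a6. A count of 0 allows up to 0.133 to 0.297 CPM in the tumor libraries, and up to 0.135 CPM in homozygous and 0.933 CPM in heterozygous alpha cells.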

How the data were processed

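Single cells were captured with the Chromium 3′ version 2 kit and, per the submitters' processing notes, handled with CASAVA 1.8, bcl2fastq 2.17 and GSNAP on GRCm38. The authors deposited cell tables of a normalized signal, together with counts of UMIs and genes per cell. Each value was a whole number of UMIs scaled by the cell's total, and whole UMIs were recovered for 100% of values within 0.01, with median sums 1.01 to 1.03 times the deposited cell totals. The unit being a signal, limma 3.58.1 was used on log2(mean CPM over cells + 1) per library, with genes at 5 CPM or more in 2 libraries and calls at an adjusted p under 0.05, tested on simulated data first. edgeR 4.0.16 and DESeq2 1.42.0 on UMI sums were alternatives. Scrublet (scanpy 1.11.5 under Python 3.11.15, expected rate 0.06) called 18, 9 and 15 doublets in the tumors and 1 and 8 in homozygous and heterozygous islets; these were left out. No cell failed 1000 UMIs, 500 genes or 20% mitochondrial UMIs, and no cell name was shared between libraries. Types with under 20 cells in a library are not described. Intervals for shares and ratios are exact (Clopper-Pearson), and the limit of a count of 0 is 3 counts. Tumor libraries could not be matched to tumor titles. Members and gene lists were chosen with earlier results of these data known. Genes named were all members past the threshold, the 16 highest in any islet type, the 10 highest in alpha and tumor cells, the top 3 of each type and, for genotype ratios, up to 6 per type at 20 CPM past 1.5-fold; further members, named to complete a chain group, were chosen after their values were seen. Values of 1 member are not reported here, though it is counted among the members.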

Additional observations from a re-analysis of the deposited data

Results flagged for a closer look

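Col4a2 differed in direction between tumors and islets in the comparison of Slc38a5-positive with negative cells. The log2 difference averaged -0.83 over tumors A and C, lower in the positive cells of both, and 0.61 over homozygous and heterozygous islets, higher in the positive cells of both. The interaction term had an unadjusted p of 0.0395 and an adjusted p of 0.910 in limma, so the difference was not called. Of 10792 genes 0 were called for this interaction, with 523 at an unadjusted p under 0.05.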

How the results depend on the processing

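No paired analysis was possible between tumors and islets because the islet titles carry no replicate number and the tumor libraries could not be matched to numbered titles. Of the members 1, Col27a1, was called higher in tumors, against 0 under TMM scaling, without the 8 hormone transcripts in the total, with no filter, with homozygous alpha cells only and in edgeR. Its log2 difference and adjusted p were then 1.25 and 0.0802, 1.25 and 0.0603, 1.45 and 0.0930, 1.53 and 0.121, and 1.21 and 0.0983. With a library left out 0 to 1 were called, never Col27a1. Of all genes 226 were called, against 40, 59, 6, 14 and 18 under those 5 settings, 659 in DESeq2 and 14 to 153 with a library left out; the cause was not tested, beyond fewer samples or more genes tested where the setting brings these. The median difference of all genes was 0.24, against 0.04 under TMM scaling. The filter at 1 CPM tested 21 members and called 1 higher and 1 lower, against 207 higher and 32 lower of all 13905 genes. The member called lower, Col9a2, passed that filter only through the alpha cells. Col4a2 turned sign under TMM (-0.035), without hormones (-0.21), with a pseudocount of 0.5 CPM (-0.016) and with a library left out (-0.12 to 1.06; lowest without homozygous alpha cells). In the Slc38a5 comparison no alternative called a member, the library block changed no call, and 0 genes became 41 without thinning (islets only), 52 in edgeR, 13 in DESeq2, 8 in tumors only and 0 to 18 with a library left out. There Col4a2 turned to 0.0012 on summed UMIs and ran from -0.36 to 0.27 with a library left out (highest without tumor A). Lama2 turned to -0.017 in DESeq2. Col27a1 turned to -0.14 without thinning and ran from -0.025 to 0.28 with a library left out (lowest without tumor A). CPM by the deposited cell totals, chosen after seeing the data, gave 227 calls and Col27a1 at an adjusted p of 0.0309. Leaving the hormones out of the total moved 37 of 77 named levels beyond their interval. Stellate and endothelial cells had median depths of 2061 to 3587 UMIs, which limits low members in them.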
